A study of Mus musculus with 8 samples.

Results

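The 41 genes described here are nuclear genes for the mitochondrial respiratory chain beyond its first complex. They encode 4 subunits of succinate dehydrogenase (complex II), 9 of the cytochrome bc1 complex (complex III), cytochrome c itself, 12 of cytochrome c oxidase (complex IV) and 15 of the ATP synthase (complex V). They were chosen by symbol from a list of known subunits, by a rule that uses no measured value, and the ATP synthase genes were also sought under their older symbols. All 41 were found among the 18395 genes of the deposited count table. The list is not complete for any of complexes III to V, since it leaves out the subunits made from mitochondrial DNA and several tissue isoforms, which were read from separate lists.

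Mice of 2 genotypes were compared, a control group labelled WT and a group labelled KO whose brown adipocytes lacked Kindlin-2, the adhesion protein made from Fermt2. Both groups had spent 6 hours at 4 °C, so the cold is common to all libraries and no library from warm mice was analysed here. Each group had 4 libraries of whole tissue, labelled only as adipose, with no depot, age, sex or Cre driver named, and with nothing to say that the replicates were separate mice. The p-values therefore measure the spread between these libraries, which may be partly technical, and in whole tissue fewer cells of a type and less RNA per cell cannot be told apart.

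In brown fat the respiratory chain oxidises fuel to make heat. Complex II passes electrons from succinate to ubiquinone, complex III hands them to cytochrome c, and complex IV gives them to oxygen, while protons are pumped by complexes III and IV and flow back through the ATP synthase or through the uncoupling protein Ucp1. Brown adipocytes are packed with mitochondria but hold unusually little ATP synthase for their respiratory capacity, a feature tied to low expression of the c subunit gene Atp5mc1, and they share with heart and skeletal muscle the complex IV isoforms Cox7a1 and Cox8b.

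The promoters of such genes often carry binding sequences for the nuclear respiratory factor NRF1 and for GABP, the estrogen-related receptors and YY1. RefSeq promoters (build GRCm38.p6, from 250 bases before to 50 after the annotated start) matched 33 of the 41 genes. The NRF1 sequence GCGCATGC was found on either strand in 8 of these 33 (24.2%), against 5.66% of the 10615 tested genes that had a promoter and 2.71% of all 32851 promoters. The 8 are shown because they span all complexes and include genes far below 0 (Uqcrc1) and above 0 (Atp5me) in the comparison of KO with WT. Capitals mark the motif or its reverse complement GCATGCGC, each line reads 5′ to 3′ on the strand of the gene, and all lie before the annotated start except those of Uqcrc1 and Uqcr11.
Sdhb, chr4:140961207-140961234, plus strand: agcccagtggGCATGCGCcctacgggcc
Uqcrc1, chr9:108936668-108936695, plus strand: actccgctctGCGCATGCgcagcgcggc
Uqcr11, chr10:80406808-80406835, minus strand: tcgccttcacGCATGCGCtatacgtctg
Cycs, chr6:50566612-50566639, minus strand: atgctagctcGCATGCGCgcgcacaaac
Cox6a1, chr5:115349103-115349130, minus strand: caggaacgggGCGCATGCgcgctctcgc
Atp5mc2, chr15:102671072-102671099, minus strand: ggctccggccGCGCATGCgcagagcctt
Atp5me, chr5:108434432-108434459, minus strand: tttcactgcgGCGCATGCgcctttctgg
Atp5mg, chr9:44920965-44920992, minus strand: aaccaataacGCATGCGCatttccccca

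The GABP sequence CCGGAAG was present in 12 of the 33 (36.4%, against 18.9% of tested genes), the estrogen-related receptor sequence AAGGTCA in 5 (15.2%, against 4.08%) and the YY1 sequence AAGATGGCG in 2 (6.06%, against 3.32%). No motif contains another, and each was searched on both strands. A match is a description of the letters only. The 8 genes with the NRF1 sequence had log2 fold changes from -0.46 (Uqcrc1) to 0.08 (Atp5me).

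The tissue isoforms differ from their general counterparts in their promoters, which is why these 4 stretches are shown. Each runs from 150 to 31 bases before the RefSeq start in build GRCm38.p6, 5′ to 3′ on the strand of the gene, with CpG dinucleotides in capitals.
Cox7a1, chr7:30184021-30184140, plus strand: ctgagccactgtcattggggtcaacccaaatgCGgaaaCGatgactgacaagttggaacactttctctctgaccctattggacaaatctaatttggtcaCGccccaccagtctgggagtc
Cox7a2, chr9:79759884-79760003, minus strand: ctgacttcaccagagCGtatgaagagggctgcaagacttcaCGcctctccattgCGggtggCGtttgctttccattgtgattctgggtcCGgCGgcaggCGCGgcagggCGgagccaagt
Cox8b, chr7:140900477-140900596, minus strand: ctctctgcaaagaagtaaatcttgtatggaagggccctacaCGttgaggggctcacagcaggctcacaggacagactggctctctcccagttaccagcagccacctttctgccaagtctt
Cox8a, chr19:7217647-7217766, minus strand: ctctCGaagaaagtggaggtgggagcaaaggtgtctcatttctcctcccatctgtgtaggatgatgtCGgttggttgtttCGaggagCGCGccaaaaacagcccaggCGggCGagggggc

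The Cox7a1 stretch holds 3 CpG and that of Cox7a2 holds 9. The Cox8b stretch holds 1 and that of Cox8a holds 7. The median over the 10615 tested genes with a promoter, and over the 33 matched subunit genes, was 8. Low CpG counts were not particular to the tissue isoforms, since Cox7b held 1, and Uqcr10 and Atp5mg held 3 each.

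Total counts per library ran from 33672272 to 43253559. Levels are given in CPM, counts in relation to a library size scaled by trimmed means (TMM). Whether the groups overlap for a gene is stated for these CPM and can differ when scaled by total count. The targeted gene Fermt2 lay between 201 and 244 CPM in WT and between 132 and 192 CPM in KO, and Ucp1, the marker of thermogenic adipocytes, lay between 5082 and 6576 CPM in WT and between 1792 and 4301 CPM in KO. A list of 10 brown adipocyte markers took 1.85% to 2.44% of all counts in WT and 1.62% to 2.32% in KO. With TMM scaling 9 of 10 markers lay lower in KO (6 when scaled by total count), and edgeR called none (1 without WT3 and KO2). A list of 10 endothelial markers took 0.129% to 0.182% in WT and 0.193% to 0.358% in KO. With TMM scaling 9 of 10 lay higher in KO (10 when scaled by total count), and edgeR called 0 (5 without WT3 and KO2). The part of either list in the results on the subunit genes was not tested.

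The libraries WT3 and KO2 stood apart from the others. In WT3, 15 skeletal muscle genes took 4.37% of all counts (95% exact binomial interval 4.36% to 4.37%, counting error only), against at most 0.0352% in any other library. In KO2, 10 interferon-response genes took 0.299% (0.298% to 0.301%), against at most 0.0325% elsewhere. In the same library a list of 10 lymphocyte genes (T and NK cells) took 0.0225%, against 0.00413% or less in every other library. Muscle has many mitochondria of its own, which is the reason to set WT3 aside. That reason does not hold for KO2, where the muscle genes took 0.0338%, against 0.0352% in WT4, which was kept. Counts of genes, medians and several fold changes are also given for the 6 libraries without WT3 and KO2. With only WT3 left out edgeR called 0 genes, and with only KO2 left out 361.

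None of the 41 genes passed an adjusted p of 0.05 in edgeR's quasi-likelihood test with Benjamini-Hochberg adjustment over all 13901 genes tested. No gene of any kind did (0%). At an unadjusted p under 0.05 there were 2993 genes, while at an adjusted p under 0.05 DESeq2 called 1113 and a weighted limma-voom fit (sample quality weights) called 911. Every subunit gene passed the filter on low counts. Of the 41, 37 lay lower in KO with TMM scaling, against 21 with scaling by total count alone. The median log2 fold change was -0.25 with TMM, while over all tested genes 49.5% lay lower and the median was 0.0036.

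At an unadjusted p under 0.05, 13 of the 41 (31.7%) lay lower in KO, against 11.1% of all tested genes, and none lay higher. This count was 7 without WT2 and 8 without WT4, and with scaling by total count alone 1 lay lower and 1 higher. In either direction, 2817 of 14154 tested genes reached that unadjusted p without WT2 and 2284 of 14112 without WT4. With total count alone, 4492 of 13901 did. With TMM scaling, all 4 KO libraries were below all 4 WT libraries in 11 of the 41 (26.8%), against 7.56% of all tested genes. These were Sdha, Sdhc, Uqcrc1, Uqcrc2, Uqcrfs1, Cox5a, Cox7b, Atp5f1a, Atp5f1b, Atp5f1c and Atp5pb. No subunit gene had all KO libraries above all WT libraries, a pattern held by 5.8% of all tested genes.

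With 6 libraries, edgeR called 1 subunit gene, Uqcrc2, among 1.5% of tested genes called lower. At an unadjusted p under 0.05, 12 lay lower, against 11.4% of tested genes. The libraries did not overlap, KO below WT, in 16 of the 41 (39.0%), against 15.3% of tested genes. With all 8 libraries DESeq2 called 5 subunit genes (Sdha, Sdhc, Uqcrc1, Uqcrc2 and Atp5f1b), all lower, against 3.31% of its 18189 genes called lower. Limma-voom with quality weights also called 5, Sdha, Uqcrc1, Uqcrc2, Atp5f1b and Atp5f1c, against 3.62% called lower.

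The shift was uneven over the KO libraries. KO1 was the lowest of the 8 libraries for 30 of the 41 genes, and KO1 or KO2 for 38. WT2 was the highest for 24. KO4 was the highest library for 7 genes (Uqcrq, Uqcrh, Uqcr10, Cox6b1, Atp5f1e, Atp5me and Atp5mg). Relative to the WT mean, the median gene stood at -0.48 in KO1, -0.23 in KO2, -0.12 in KO3 and -0.09 in KO4 on the log2 scale, and between -0.13 and 0.17 in the WT libraries. Without KO1 the median log2 fold change of the 41 genes was -0.16 and 31 lay lower.

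**Figure D1:**
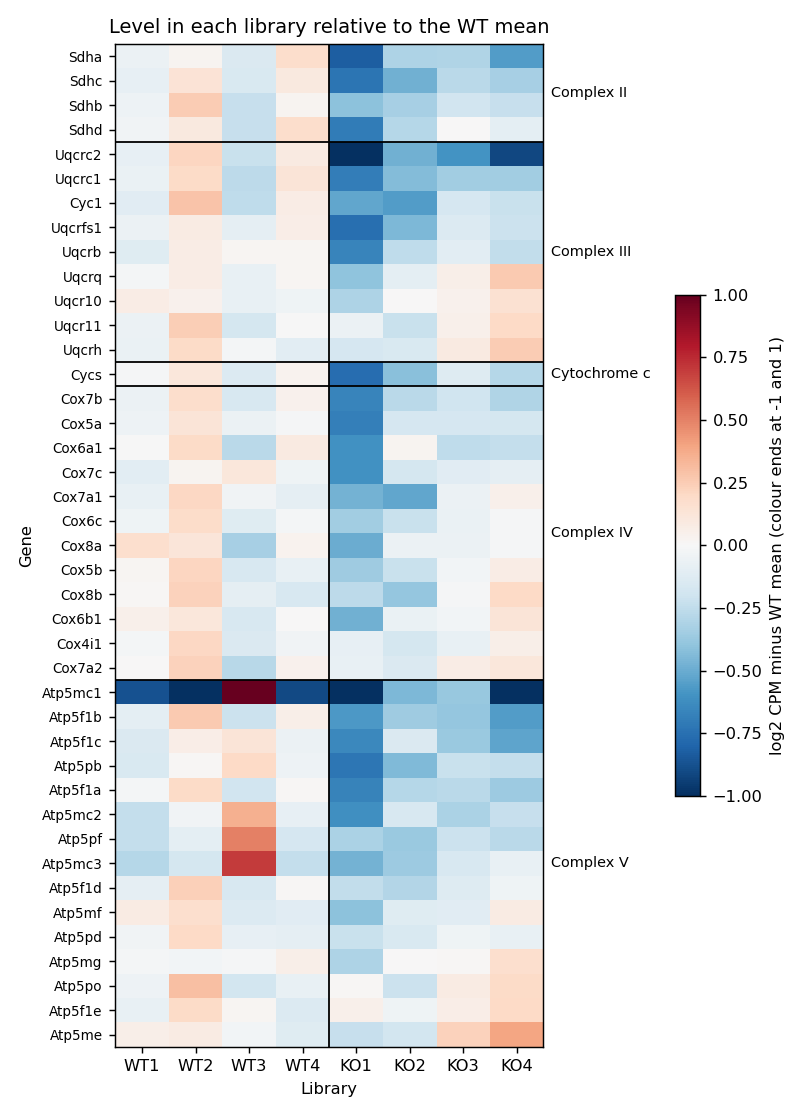
Heat map of log2 CPM minus the WT mean for the 41 genes (rows, grouped by complex) in the 8 libraries (columns), with colours ending at -1 and 1. KO1 is the bluest column, the lowest library for 30 of 41 genes, and WT3 is red for Atp5mc1, Atp5mc3 and Atp5pf.

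Complex II lay lower in all 4 of its genes, with a median log2 fold change of -0.37 (-0.42 with 6 libraries), and 0 of 4 were called by edgeR. Sdha encodes the flavoprotein that oxidises succinate. Its level was 1491, 1588, 1403 and 1759 CPM in WT1 to WT4, and 878, 1256, 1262 and 1054 CPM in KO1 to KO4. The groups did not overlap, the WT libraries averaging 1560.0 ± 153 CPM and the KO libraries 1113 ± 184 CPM (SD, n = 4). Sdha differed by -0.49 ± 0.15 (SE) on the log2 scale, with an adjusted p of 0.139 in edgeR and 0.0333 in DESeq2.

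Sdhc encodes a membrane anchor of the complex. It was counted at 538, 626, 511 and 609 CPM in WT and at 343, 409, 473 and 453 CPM in KO, again without overlap. Its log2 fold change was -0.45 ± 0.14 (SE; adjusted p = 0.139 in edgeR, 0.0353 in DESeq2). The iron-sulfur subunit Sdhb spanned 777 to 1086 CPM in WT and 684 to 799 CPM in KO, so that its ranges met, and differed by -0.30 ± 0.13. For the other anchor, Sdhd, the ranges overlapped widely (587 to 778 against 425 to 691 CPM) and the difference was -0.25 ± 0.17.

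Complex III differed by subunit. The 4 large subunits (Uqcrc1, Uqcrc2, Cyc1 and Uqcrfs1) had log2 fold changes between -0.79 and -0.37, while 4 small ones (Uqcrq, Uqcrh, Uqcr10 and Uqcr11) lay between -0.03 and 0.01. The ninth gene, Uqcrb, which lines the ubiquinone site, is small but stood nearer the large ones at -0.31 ± 0.14. This grouping was made after the values were seen, and the difference between the groups was not tested. Uqcrc2, a core scaffold subunit, had the lowest p of the 41 genes. Its level was 629.5, 774, 569 and 708 CPM in WT1 to WT4 and 285, 477, 439 and 353 CPM in KO1 to KO4.

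With TMM scaling the highest KO library for Uqcrc2 was therefore below the lowest WT library. Scaled by total count, KO2 lay above WT3. The WT libraries averaged 669.9 ± 89.5 CPM and the KO libraries 389 ± 86.1 CPM (SD, n = 4), and the fitted difference was -42.0%. As a log2 fold change this was -0.79 ± 0.18 (SE), with an adjusted p of 0.0981 in edgeR and 0.00288 in DESeq2. In the 6 libraries Uqcrc2 fell by 0.97 ± 0.17 on the log2 scale (edgeR adjusted p = 0.0334), and leaving out KO2 alone gave -0.90 (edgeR adjusted p = 0.0399). Leaving out any 1 library kept the value between -0.90 and -0.67. The gene Pdzd9 overlaps its exons on the opposite strand but had 284 counts in all libraries together, against 155339 for Uqcrc2.

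Uqcrc1, the partner of Uqcrc2 in the core, was counted at 1559, 1864.5, 1364 and 1787 CPM in WT and at 1013, 1209, 1280.3 and 1279 CPM in KO. The groups did not overlap, and the log2 fold change was -0.46 ± 0.14 (SE; edgeR adjusted p = 0.14, DESeq2 adjusted p = 0.0333). Cyc1, the haem-bearing cytochrome c1, differed by -0.37 ± 0.16, and Uqcrfs1, the Rieske iron-sulfur protein, by -0.37 ± 0.15. The hinge protein Uqcrh averaged 824 ± 78.3 CPM over the WT libraries and 830.1 ± 117 CPM over the KO libraries (SD, n = 4), a log2 difference of 0.01 ± 0.14 (SE).

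The ratio of 2 genes within a library does not depend on how libraries are scaled. Uqcrc2 counts were 0.804, 0.826, 0.702 and 0.927 times those of Uqcrh in WT and 0.39, 0.646, 0.503 and 0.362 times in KO. Every KO ratio was below every WT ratio. The same held for Uqcrc2 against Uqcr10 (WT 1.16 ± 0.142, KO 0.681 ± 0.122, SD, n = 4) and against Uqcr11 (1.25 ± 0.0579 and 0.748 ± 0.23). These pairs were picked after the values were seen and are given without a test.

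Cytochrome c, the mobile carrier between complexes III and IV, is encoded by Cycs. Its level was 632, 689, 580.4 and 652 CPM in WT and 377, 476, 584 and 522 CPM in KO. Only KO3 reached into the WT range, just above WT3. The log2 fold change was -0.38 ± 0.15 (SE; edgeR adjusted p = 0.191), and -0.41 ± 0.17 with 6 libraries.

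Complex IV had the median nearest 0 with all libraries, a log2 fold change of -0.16, which was -0.09 without KO1 and 0.09 when libraries were scaled by their total count. With 6 libraries it was -0.17, and complex V was then nearer 0. All 12 complex IV genes lay lower with TMM scaling, from -0.35 to -0.02, and 0 of 12 were called by edgeR. The difference between complexes was not tested. Cox7b, a structural subunit, was counted at 872, 1029, 815 and 936 CPM in WT and at 576, 757, 790.3 and 737 CPM in KO. The groups did not overlap, and the log2 fold change was -0.35 ± 0.14 (SE; edgeR adjusted p = 0.194).

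Cox5a, a subunit on the matrix side, was counted at 407, 460.4, 404 and 419 CPM in WT and at 263, 376, 375 and 374 CPM in KO. KO2 to KO4 were within 3 CPM of each other and KO1 was far below them. The difference was -0.28 ± 0.14 (SE; edgeR adjusted p = 0.261), and -0.18 without KO1. Cox4i1, the main subunit IV isoform, averaged 2040.2 ± 217 CPM over the WT libraries and 1941 ± 132 CPM over the KO libraries (SD, n = 4), and differed by -0.07 ± 0.12. The remaining genes without a tissue partner in the list (Cox5b, Cox6a1, Cox6b1, Cox6c and Cox7c) had values from -0.26 to -0.10, all with overlapping ranges. With 6 libraries Cox6a1, the general isoform of subunit VIa, no longer overlapped and stood at -0.45 ± 0.15 (edgeR adjusted p = 0.126).

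Cox7a1 is the subunit VIIa isoform of heart, muscle and brown fat, and Cox7a2 is its general counterpart. Cox7a1 was counted at 311, 378, 319.8 and 307 CPM in WT and at 236, 228, 316 and 339 CPM in KO. KO1 and KO2 lay below all WT libraries and KO3 and KO4 within the WT range, and the log2 difference was -0.23 ± 0.16 (SE; edgeR adjusted p = 0.392). It was -0.15 without KO2 and -0.16 with 6 libraries. Cox7a2 was counted at 557, 651, 458 and 572 CPM in WT and at 528, 503, 584 and 601 CPM in KO, with full overlap. Its log2 fold change was -0.02 ± 0.13 (SE; edgeR adjusted p = 0.954).

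Cox8b is the muscle and brown fat isoform of subunit VIII, and Cox8a the general one. Cox8b was counted at 886, 1031, 823 and 785 CPM in WT and at 731, 670.2, 871 and 1006 CPM in KO. Cox8a was counted at 1437, 1392, 1018 and 1314 CPM in WT and at 905, 1229, 1226 and 1270.0 CPM in KO. The groups overlapped for both genes. The log2 fold changes were -0.10 ± 0.16 for Cox8b and -0.16 ± 0.16 for Cox8a (SE; edgeR adjusted p = 0.721 and 0.58). Leaving out 1 library moved Cox8b between -0.22 (without KO4) and -0.02 (without KO2 or without WT2), with -0.057 without KO1. For Cox8a the span was -0.26 (without WT3) to -0.06 (without KO1), with -0.10 without WT1, and with 6 libraries its groups no longer overlapped, at -0.28 ± 0.16.

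The balance of tissue and general isoforms was tested as log2 ratios of counts within a library, by exact two-sided permutation over libraries, for 6 isoform pairs. With 4 against 4 the smallest possible p is 0.0286. The Cox7a1 to Cox7a2 ratio was 0.558, 0.581, 0.698 and 0.537 in WT and 0.448, 0.454, 0.541 and 0.565 in KO. KO1 and KO2 were below all WT libraries and KO3 and KO4 were not. The mean log2 ratio was -0.76 ± 0.168 over the WT libraries and -1.002 ± 0.171 over the KO libraries (SD, n = 4), a difference of -0.24 ± 0.12 (SE; exact permutation p = 0.143, adjusted p = 0.429). In the 6 libraries the difference was -0.12.

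The Cox8b to Cox8a ratio was 0.616, 0.741, 0.808 and 0.597 in WT and 0.808, 0.545, 0.71 and 0.792 in KO. KO values covered the whole WT range, and the log2 ratios differed by 0.04 ± 0.17 (SE; exact permutation p = 0.886, adjusted p = 0.886). The groups overlapped in both pairs, and no shift toward or away from the tissue isoforms was shown. With 4 libraries a group, a single pair that separated completely would still have had an adjusted p of 0.171. The adjusted test therefore could not decide whether either balance shifted. Cox4i2, the subunit IV isoform known from lung and hypoxic tissue, was scarce, with counts 0.00305 to 0.00423 times those of Cox4i1 in WT and 0.00442 to 0.00541 times in KO. All KO ratios were above all WT ratios, a log2 difference of 0.40 ± 0.12 (SE; exact permutation p = 0.0286, adjusted p = 0.171). That p is the smallest possible with 4 libraries a group, so the adjusted test could not pass for this pair alone.

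Cox6a2, the muscle isoform of subunit VIa, stood far higher in WT3 than elsewhere. It had 12017 counts in WT3 and between 0 and 67 in the other 7 libraries. Neither Cox7a1 nor Cox8b was raised in WT3 in CPM, where both lay within the range of the other WT libraries, but the ratios to Cox7a2 and Cox8a were highest there among WT libraries, with Cox7a2 and Cox8a at their lowest WT level.

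**Figure D2:**
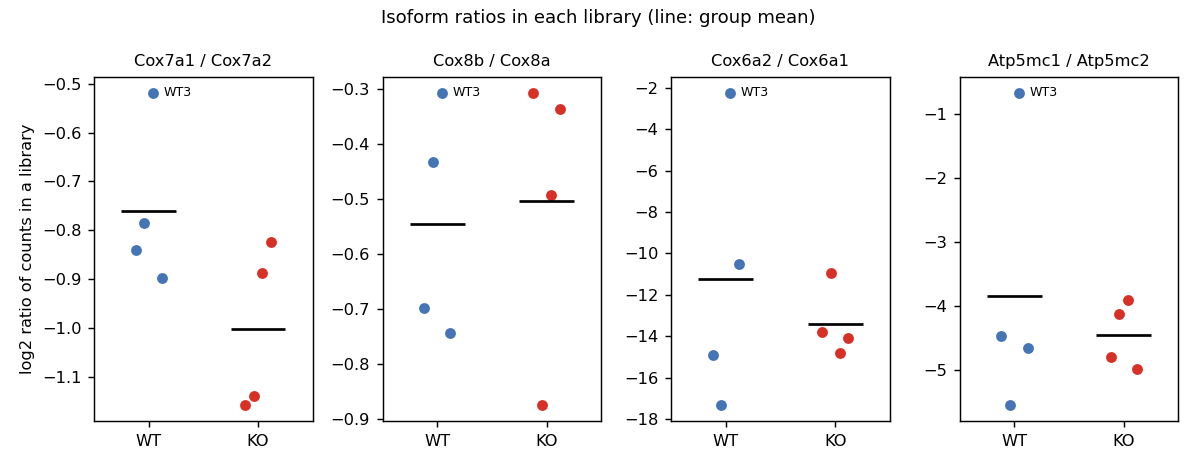
Log2 ratio of counts of 2 isoforms within each library, for Cox7a1 to Cox7a2, Cox8b to Cox8a, Cox6a2 to Cox6a1 and Atp5mc1 to Atp5mc2. Points are libraries, lines are group means and each panel has its own axis. WT3 is the highest WT point in all 4 panels, and the groups overlap in each. The tested pairs Atp5mc1 to Atp5mc3 and Cox4i2 to Cox4i1 are not drawn. In the Cox4i2 pair all KO ratios were above all WT ratios.

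Complex V lay lower in 12 of 15 genes with a median log2 fold change of -0.32, which was -0.16 without WT3, -0.14 with 6 libraries and 0.09 with 6 libraries scaled by total count. By edgeR 0 of 15 were called. Apart from Atp5mc1, the lowest values were in the catalytic head and its stalk. Atp5f1b, the beta subunit that makes ATP, was counted at 5032, 6462, 4635 and 5611 CPM in WT and at 3626, 4224, 4113 and 3659 CPM in KO. The groups did not overlap, the WT libraries averaging 5435 ± 793 CPM and the KO libraries 3906 ± 308 CPM (SD, n = 4). Atp5f1b differed by -0.48 ± 0.14 (SE) on the log2 scale, with an adjusted p of 0.131 in edgeR and 0.0193 in DESeq2.

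Atp5f1c, the gamma subunit that turns inside the head, was counted at 631, 729, 762 and 669.6 CPM in WT and at 444, 630.4, 538 and 484 CPM in KO. KO2 lay just under WT1, so the groups stayed apart by a narrow gap. The difference was -0.41 ± 0.14 (SE; edgeR adjusted p = 0.156). The alpha subunit Atp5f1a differed by -0.39 ± 0.14 and the stalk subunit Atp5pb by -0.40 ± 0.15, both without overlap. The delta subunit Atp5f1d differed by -0.18 ± 0.13 with overlapping ranges.

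The epsilon subunit Atp5f1e, the smallest of the head, differed by 0.07 ± 0.12. Counts of Atp5f1b were 9.92, 10.6, 8.54 and 11.5 times those of Atp5f1e in WT and 6.54, 8.14, 7.35 and 5.97 times in KO, with every KO ratio below every WT ratio. This pair too was picked after the values were seen. Besides Atp5f1e, the genes with values above 0 were Atp5me (0.08), Atp5po, which links head and stalk (0.02), and in complex III Uqcrh (0.01). Atp5me, which holds ATP synthase dimers together, was counted at 192, 195, 181 and 169.9 CPM in WT and at 157, 163, 216 and 242 CPM in KO, so that KO libraries lay on both sides of the WT range (adjusted p = 0.799 in edgeR, and without KO4 the log2 fold change was -0.05).

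The other membrane and stalk genes (Atp5pd, Atp5mf, Atp5mg and Atp5pf) had values from -0.33 to -0.02, all with overlapping ranges. Atp5pf, coupling factor 6, was at -0.33 ± 0.17 with all libraries and at -0.10 ± 0.11 with 6. Its exons overlap those of Gabpa on the opposite strand, and whether the counting used the strand is not given in the sources used here.

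The c ring of the ATP synthase is encoded by Atp5mc1, Atp5mc2 and Atp5mc3, whose mature proteins are identical. Atp5mc1 was counted at 10.9, 5.92, 229.8 and 10.7 CPM in WT and at 6.66, 14.6, 15.3 and 7.69 CPM in KO. The WT3 value stood alone, in the library that also held the muscle transcripts. The log2 fold change was -2.54 ± 1.33 with all libraries (SE; edgeR adjusted p = 0.304), 0.27 without WT3 and 0.11 ± 0.35 with 6 libraries, so both its direction and size rested on that library.

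Atp5mc2 was counted at 243, 278, 365 and 271 CPM in WT and at 186, 256, 229 and 243 CPM in KO. Its difference was -0.34 ± 0.16 (SE; edgeR adjusted p = 0.242), -0.21 without WT3 and -0.26 ± 0.14 with 6 libraries. Atp5mc3 was counted at 287, 309, 566 and 295 CPM in WT and at 252, 270.5, 313 and 331 CPM in KO. WT3 was again the highest, and the difference of -0.32 ± 0.23 became -0.03 without WT3 and 0.0079 ± 0.14 with 6 libraries. The ratio of Atp5mc1 to Atp5mc2 lay between 0.0213 and 0.0451 in WT1, WT2 and WT4, between 0.0316 and 0.0669 in KO, and at 0.63 in WT3 (exact permutation p = 0.857 over all libraries, adjusted p = 0.886).

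**Figure D3:**
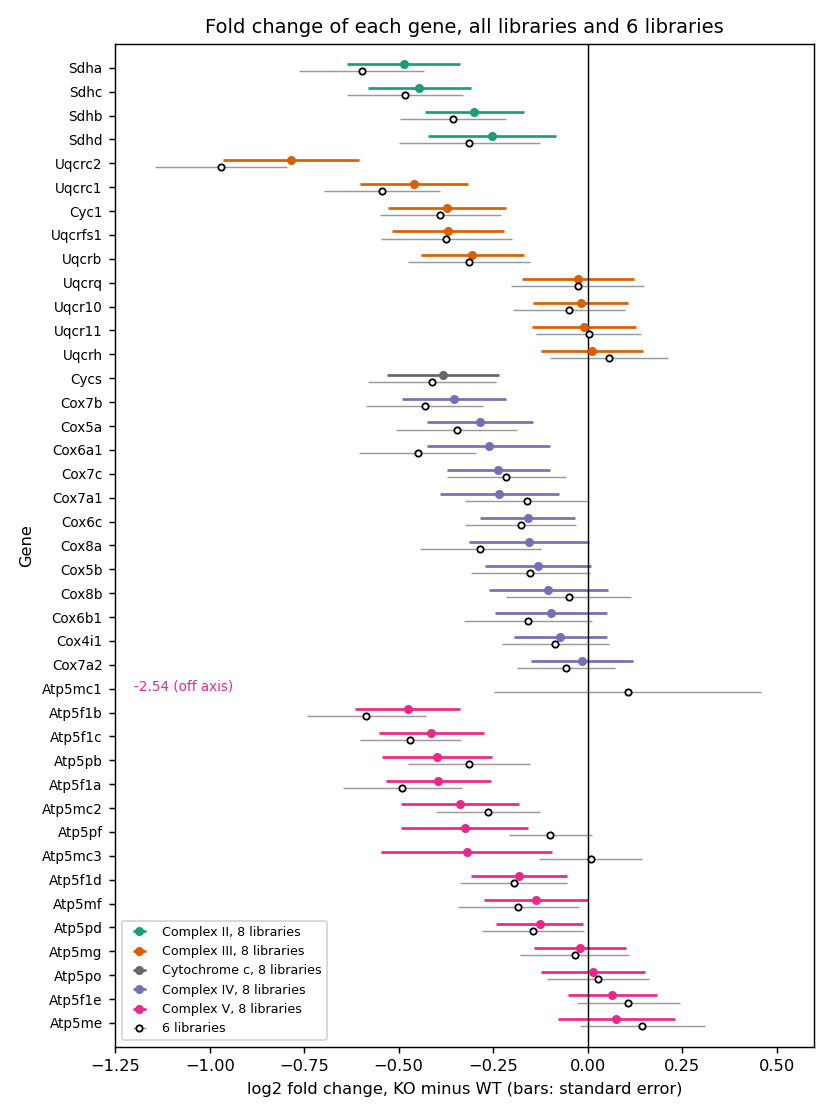
Log2 fold change, KO minus WT, of each of the 41 genes with its standard error, with all 8 libraries (coloured by complex) and with the 6 libraries without WT3 and KO2 (open circles). Atp5mc1 lies off the axis at -2.54 with 8 libraries. With TMM scaling 37 of 41 coloured points lie left of 0 (21 with scaling by total count), with Uqcrc2 at -0.79, and the points of Atp5mc1 and Atp5mc3 move to 0 or above with 6 libraries.

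The genes nearest 0 had short transcripts. Over the 41 genes, Spearman's rho between log2 fold change and transcript length was -0.70 (a description across genes, which are not independent replicates), and it was 0.06 over 13868 tested genes with a length. The 9 subunit genes with transcripts under 500 bases had a median of -0.03, and all 245 tested genes of that length had a median of 0.05. The 5 subunit genes of 1500 to 2000 bases had a median of -0.46, and all 1741 tested genes of that length had a median of -0.05. With a trend on gene length removed in each library, rho over the 41 genes was -0.64 and their median log2 fold change -0.26. Length moves with subunit role only in part, since the large core and catalytic subunits have long transcripts. The longest, however, are those of the anchor Sdhc (3171 bases, log2 fold change -0.45) and of Cycs (3123 bases, -0.38). The parts of role and length were not tested.

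**Figure D4:**
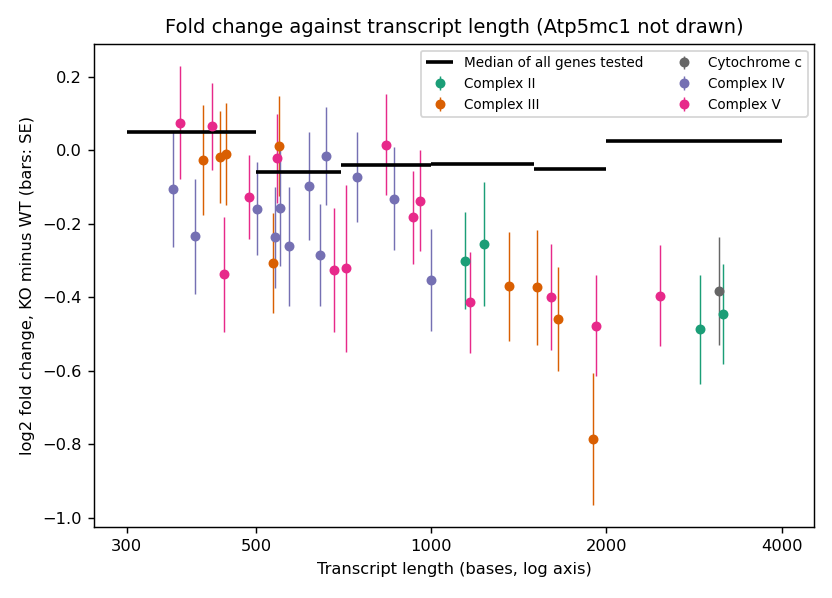
Log2 fold change, KO minus WT, against transcript length in bases (log axis) for 40 of the 41 genes, with standard errors and coloured by complex; Atp5mc1 is not drawn. Black lines are medians of all tested genes in 6 length classes and stay between -0.06 and 0.05, while the subunit genes run from near 0 at short lengths to -0.79 at Uqcrc2.

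How libraries are scaled decides where 0 lies. The TMM factors were 0.8785 to 0.9482 in the WT libraries and 1.047 to 1.155 in the KO libraries. They did not overlap between the groups, and a larger factor lowers the CPM of a library. Scaled by the total count alone, the median log2 fold change of all tested genes was 0.26, and that of the 41 genes was -0.0058 with 21 lower. Medians were then -0.12 for complex II, -0.05 for III, 0.09 for IV and -0.06 for V, so complex IV changed side. The 41 genes together took 3.66% ± 0.446 of each WT library and 3.61% ± 0.240 of each KO library (SD, n = 4). The median of the subunit genes minus that of all genes was -0.26 with the trimmed mean and -0.27 with the total. Scaling moves all genes of a library by the same factor, so this difference had to stay nearly the same. The closeness of the values is therefore no check on the scaling.

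**Figure D5:**
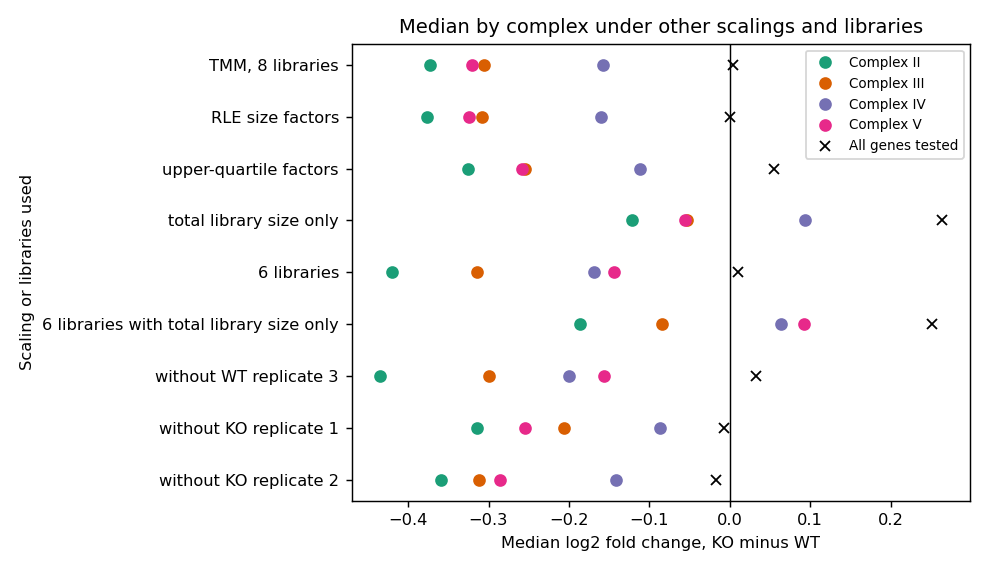
Median log2 fold change, KO minus WT, of complexes II, III, IV and V (coloured points) and of all tested genes (crosses) under 4 scalings and with libraries left out. With total library size all points move right and the cross of all genes stands at 0.26, to the right of every complex.

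Subunits of the same complexes made from mitochondrial DNA were read from a separate list. With TMM scaling all 6 (mt-Cytb, mt-Co1, mt-Co2, mt-Co3, mt-Atp6 and mt-Atp8) lay lower, with a median of -0.76 (5 of 6 and -0.51 when scaled by total count), from -2.13 (mt-Atp8) to -0.06 (mt-Co3). The difference from the nuclear genes was not tested. The set took 12.2% to 15.5% of all counts in WT and 9.34% to 11.2% in KO. Counts of Cox4i1 were 0.0191 to 0.0265 times those of mt-Co1 in WT and 0.03 to 0.0421 times in KO, with every KO ratio above every WT ratio. Within complex III the ratio of Uqcrc2 to mt-Cytb was 0.0134 ± 0.00262 over the WT libraries and 0.013 ± 0.00284 over the KO libraries (SD, n = 4), with overlapping ranges. Both pairs were picked after the values were seen. Mitochondrial transcripts have short poly(A) tails, and these libraries were made by poly(A) capture.

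Levels of different genes were compared per kilobase of the shortest principal transcript. In WT the highest was Cox6a1, at 4032 ± 532 CPM per kilobase, ahead of Atp5f1b at 2837 ± 414 and Cox4i1 at 2739 ± 292 (SD, n = 4), of which Atp5f1b and Cox4i1 lie within their spread of each other. Cox8b (2447 ± 300) and Cox8a (2345 ± 343) stood side by side, as did Cox7a1 (837 ± 84.1) and Cox7a2 (849 ± 120). Complex II genes ranged from 180.2 (Sdhc) to 803 (Sdhb) CPM per kilobase. Atp5mc1 was the lowest of all, at 15.4 ± 4.73 in WT without WT3, against 598 ± 42.6 for Atp5mc2 and 416 ± 16.2 for Atp5mc3. These levels depend on the transcript chosen, which for Atp5mc1 may be 596 or 4715 bases long.

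Processed copies of some of these genes are scattered over the genome. At 90% identity over at least 200 bases, 17 of the 41 genes had at least 1 annotated pseudogene copy, 58 in all, of which 10 were in the count table. The counts of such copies came to at most 2.41% of those of the parent gene (Atp5me). How reads matching several copies were counted is not given in the sources used here, so values of the small subunits with copies carry that uncertainty.

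Assembly factors, the proteins that build these complexes, were read from a separate list. Of 43 listed, 41 were tested and 36 lay lower in KO (median log2 fold change -0.25), against 19 when scaled by total count. An unadjusted p under 0.05 was reached by 9 of the lower ones, against 11.1% of all tested genes, and 0 were called in edgeR. With TMM scaling 11 of the 41 had every KO library below every WT library, against 7.56% of all tested genes. Those with the smallest p were Dmac2l, tied to the ATP synthase, at -0.47 ± 0.12 (edgeR adjusted p = 0.104), Uqcc1, which assembles complex III, at -0.52 ± 0.14 (edgeR adjusted p = 0.118), and Tmem70, which assembles the ATP synthase, at -0.51 ± 0.14 (edgeR adjusted p = 0.122). All 3 were among those 11, but they were picked by their p, which favours such a pattern. Of 9 further subunits and isoforms, 6 were tested, 4 lay lower (1 when scaled by total count) and 0 were called by edgeR. Atp5mk had the smallest p among them (-0.35 ± 0.14, edgeR adjusted p = 0.205), followed by Cox4i2 (0.34 ± 0.16, edgeR adjusted p = 0.255) and the complex IV subunit Ndufa4 (-0.19 ± 0.13, edgeR adjusted p = 0.415).

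Of 10 regulators of respiratory genes, 7 lay lower (5 when scaled by total count), with a median of -0.22, and 0 were called by edgeR. Nrf1, which encodes the factor of the sequences shown, differed by 0.14 ± 0.12 and Gabpa by -0.20 ± 0.11. The coactivator Ppargc1a differed by -0.78 ± 0.29 (edgeR adjusted p = 0.187), its relative Ppargc1b by 0.81 ± 0.26 (edgeR adjusted p = 0.156) and the estrogen-related receptor Esrrg by -1.15 ± 0.34 (edgeR adjusted p = 0.133). These 5 were picked from the list after their values were seen.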

How the data were processed

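RNA from 8 adipose libraries, 4 WT and 4 KO, was captured by poly(A) and made into dUTP libraries, per the labels' protocols. What the authors deposited is 1 table of raw whole-number counts per gene. GRCm39 is the build in the submitters' processing notes, while aligner, counter and annotation were not given in the sources used here. Symbols came from GENCODE M21 and were found for 18321 of 18395 genes. The 15 ATP synthase genes were matched by older symbols as well.

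Genes were kept by filterByExpr by group (13901). The groups were compared in edgeR 4.0.16 (R 4.3.3) with trimmed-mean (TMM) scaling and the robust quasi-likelihood test, without covariates, and p-values were adjusted by Benjamini-Hochberg over all genes tested (threshold 0.05). Isoform ratios used counts plus 0.5 and exact permutation tests (scipy 1.17.1), adjusted over 6 pairs. Total counts were 33672272 to 43253559 per library. The coefficient of variation between libraries beyond counting error, common to all genes in edgeR, was 0.361 (0.226 with 6 libraries).

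The rule for the 41 genes names symbols and uses no value, but the genes, lists and rules were chosen with earlier results of these data known. Named with values in every library were the isoforms Cox7a1, Cox7a2, Cox8a, Cox8b, Atp5mc1, Atp5mc2, Atp5mc3 and Cycs, the 2 genes with the smallest p in each complex, and the genes with the largest fold change in each direction. Of other subunits and assembly factors, the 3 with the smallest p were named.

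Alternatives were other scalings and filters, DESeq2 1.42.0 (own filtering, all genes with counts), limma-voom (limma 3.58.1) with and without quality weights, a replicate block, each library left out, 6 libraries, removal of muscle genes and removal of a gene length trend. The tests were checked on simulated counts. Promoter sequences came from RefSeq; pseudogene copies were found with BLAST 2.17.0. Figures used matplotlib 3.10.9.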

Additional observations from a re-analysis of the deposited data

Results flagged for a closer look

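The highest and lowest library of each group of 4 were set against the other 3 by Dixon's criterion at 95% in 94 groups of values, and 5 values stood far from the rest of their group. Chance alone flags about 1 in 20 independent groups. The groups here reuse the same 8 libraries and are not independent, so the number seen cannot be judged against that rate. Both KO cases were the low library KO1: Cox5a at 262.8 CPM, against 373.8 to 376.5 CPM in the other KO libraries, and Cox8a at 904.5 CPM, against 1226 to 1270.0 CPM. The 3 WT cases were the ATP synthase genes in WT3, the library with muscle transcripts. Atp5mc1 stood at 229.8 CPM, against 5.921 to 10.92 CPM in the other WT libraries, Atp5mc3 at 565.5 CPM, against 286.5 to 309.4 CPM, and Atp5pf at 319.0 CPM, against 190.9 to 209.6 CPM. The part of muscle RNA in these 3 values was not tested.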

How the results depend on the processing

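No gene was called with trimmed-mean, DESeq2 or upper-quartile scaling in edgeR or with unweighted limma-voom. The number called over all genes was 882 with total library size, 1 without a filter, 1113 with DESeq2, 911 with quality weights, 461 with 6 libraries, 1530 with 6 libraries and total size, and 0 to 361 with 1 library left out (361 without KO2). With total size, 858 of the 882 calls were higher in KO. Subunit genes called numbered 5 with DESeq2, 5 with quality weights, 1 with 6 libraries under either scaling and 0 to 1 with 1 library left out. Of the 41, 21 lay lower with total size and 19 with 6 libraries and total size, where their median was -0.0058 and 0.040. Medians with total size were -0.12 (complex II), -0.053 (III), 0.094 (IV) and -0.055 (V), and with 6 libraries and total size -0.084 (III), 0.064 (IV) and 0.092 (V). The complex V median was -0.16 with quality weights, -0.14 with 6 libraries and -0.40 to -0.16 with 1 library left out.

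Among the 17 genes given in every library, the fold changes that changed sign, none of them called, were those of Atp5mc1 (0.11 with 6 libraries, 0.33 also with total size, -2.92 to 0.27 with 1 library left out), Atp5mc3 (0.0079 and 0.24 for the same 2 settings), Atp5me (-0.048 to 0.16 with 1 library left out), Cox7a1 (0.018 with total size, 0.071 with 6 libraries and total size), Cox7a2 (0.030 with upper-quartile factors, 0.24 with total size, 0.0034 with quality weights, 0.18 with 6 libraries and total size, -0.10 to 0.065 with 1 library left out), Cox8a (0.094 with total size) and Cox8b (0.15, 0.012 and 0.18 with total size, quality weights, and 6 libraries and total size). The cause was not tested. With 1 library left out, log2 ratio differences ran from -0.023 to 0.17 for Cox8b to Cox8a, -4.21 to 0.83 for Cox6a2 to Cox6a1, -1.19 to 0.44 for Atp5mc1 to Atp5mc2 and -1.21 to 0.26 for Atp5mc1 to Atp5mc3; with 6 libraries the last pairs gave 0.33 and 0.062.

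Replicate numbers are shared by the groups, but nothing says that they pair the libraries, so they were not taken as pairs. Deviations of same-numbered libraries correlated at -0.05, 0.04, -0.13 and 0.22. The KO library that correlated best with WT1, WT2, WT3 and WT4 was KO3, KO2, KO2 and KO4. These correlations cannot decide whether the libraries were paired. With the replicate block 0 genes were called, 37 subunit genes lay lower and their median was -0.27.

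Among the isoform pairs, Atp5mc1 had as few as 189 counts in a library and Cox6a2 as few as 0. With 4 libraries a group, a single isoform ratio at the smallest possible exact permutation p of 0.0286 has an adjusted p of 0.171 over the 6 pairs, so it cannot pass alone.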
